A study of Mus musculus with 80 samples.

Results

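Blood transcript responses to the same total dose of 4.1 Gy, given acutely or spread over 5 days, were compared on day 5. The comparison is the acute response minus the protracted response, where a response is irradiated minus its own sham on the log2 scale. It rests on 24 of the 80 libraries of the series, in 4 groups of 6, which the sample labels set by dose, exposure mode and day and no measured value set. In the Acute 4.1 Gy group the dose was delivered at 0.73 Gy/min, and the Acute sham group received 0 Gy. In the VarDR 4.1 Gy group the dose accumulated over 5 days at a variable dose rate, labelled 0.62 Gy/day, and the VarDR sham group received 0 Gy. VarDR stands for variable dose rate, an external exposure that simulates internal radioactive caesium. All 24 libraries were made from whole blood of female mice of genotype C57Bl/6, drawn by cardiac puncture on day 5, with no transgene or drug in the labels and no age in the sources used here. Each library is labelled as a mouse, without a cage or exposure batch. P-values therefore measure the spread between libraries within groups, estimated from all 80 libraries of the series in 14 groups. The time between dose and blood draw also differed between the exposure modes, and cannot be told apart from dose rate.

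Ionising radiation breaks DNA and activates the ATM kinase and the transcription factor p53, which switches on genes of cell cycle arrest, apoptosis and repair. Circulating B lymphocytes are among the most radiosensitive blood cells, whereas platelets carry no nucleus and keep transcripts from megakaryocytes. Whole-blood RNA sums over all of these cells, so fewer cells of a type and less RNA per cell cannot be told apart.

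Values are the authors' normalized read abundances per gene, rescaled so that all libraries had equal medians of ratios, and they are compared between libraries, not between genes, since they are not per length. Column totals of the day 5 libraries were 23193224 to 45565530 and 16085 to 25211 genes were above 0, while sequencing depth itself is unknown. Haemoglobin, B cell, T cell, platelet and neutrophil genes were detected in every group, which is what whole blood holds. The title of the deposited table names lung and a day that no sample label holds, whereas its column names match the labels of these blood samples. The 10 lung markers summed to 553 to 1594 in Acute 4.1 Gy libraries, 298 to 572 in Acute shams, 271 to 2424 in VarDR 4.1 Gy libraries and 258 to 3217 in VarDR shams, and Scgb3a2, a secretoglobin of the airway, was at 0 in all 24. Markers of liver took 0.0266 to 2.41% of the signal in Acute 4.1 Gy libraries and 0.0051 to 0.120% in Acute shams. In the VarDR arm they took 0.0936 to 3.41% in 4.1 Gy libraries and 0.0159 to 4.22% in shams. None of the 25 liver genes passed the test of the difference of responses. Of these differences, 24 were positive, with a median of 0.99 log2. Summed liver values ran from 6858 to 1176620 within the VarDR shams. With this spread, the lack of calls does not show a like liver signal in both arms. The tested markers of lung (6), heart muscle (7), skeletal muscle (7) and skin (5) also had 0 calls in that test. Over 0.5% was reached by 3 Acute 4.1 Gy, 4 VarDR 4.1 Gy and 3 VarDR sham libraries and by 0 Acute shams. VarDR 4.1 Gy replicates 4 and 6 stood apart from their group, with a Pearson r of 0.804 between them across genes. Acute 4.1 Gy replicate 5 held 16.6% of its signal in the mitochondrial ribosomal RNA gene mt-Rnr2.

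The acute and VarDR responses differed for 561 of 21124 genes tested (2.66%), with an adjusted p under 0.05 for the difference of responses (limma, Benjamini-Hochberg adjustment over all genes tested). These are called dose-rate-dependent. The difference was positive for 213 genes (1.01%) and negative for 348 (1.65%), and it exceeded 2-fold for 387. With the values as deposited, without rescaling, 7511 of 7675 calls were positive and the median difference of all genes was 0.84 log2, against -0.04 log2 after rescaling, so all directions below are relative to the typical gene. Of the dose-rate-dependent genes, 302 had the same sign in both responses with the larger size in the acute one, 258 had opposite signs, counting responses that did not pass, and 1, Ptger2, a prostaglandin receptor gene, had the same sign with the larger size in the VarDR response. The acute response alone passed for 343 of the 561 genes, the VarDR response alone for 66, both in the same direction for 114, both in opposite directions for 17 and neither for 21. The irradiated groups themselves differed for 1530 genes (7.24%; 3.95% higher and 3.29% lower after acute exposure), which include 418 of the 561. The shams of both exposure modes differed for 9 genes (0.0426%), 7 of which were dose-rate-dependent. That number was 233 without VarDR sham replicate 1, 53 without VarDR sham replicate 3, 5 without Acute sham replicate 2 or 4 and 3 without Acute sham replicate 6.

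The acute response passed for 3982 genes (18.9%) and the VarDR response for 1856 (8.79%). In 1154 genes both passed in the same direction, which is 29.0% of the acute calls and 62.2% of the VarDR calls. A gene was called dose-rate-independent where both responses passed in the same direction and the 95% interval of their difference lay within -1 to 1 log2, that is within 2-fold. The interval alone met this limit for 5653 genes (26.8%). Both conditions held for 499 genes (2.36%), 332 that rose and 167 that fell in both exposures. Of the 1154, 114 were dose-rate-dependent, 2 of which also met the interval limit, and 543 met neither definition. The median size of the response over the 1154 genes was 1.40 log2 after acute and 1.03 log2 after VarDR exposure. The acute response was the larger in size for 883 of the 1154 genes and for 369 of the 499 dose-rate-independent genes.

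**Figure D1:**
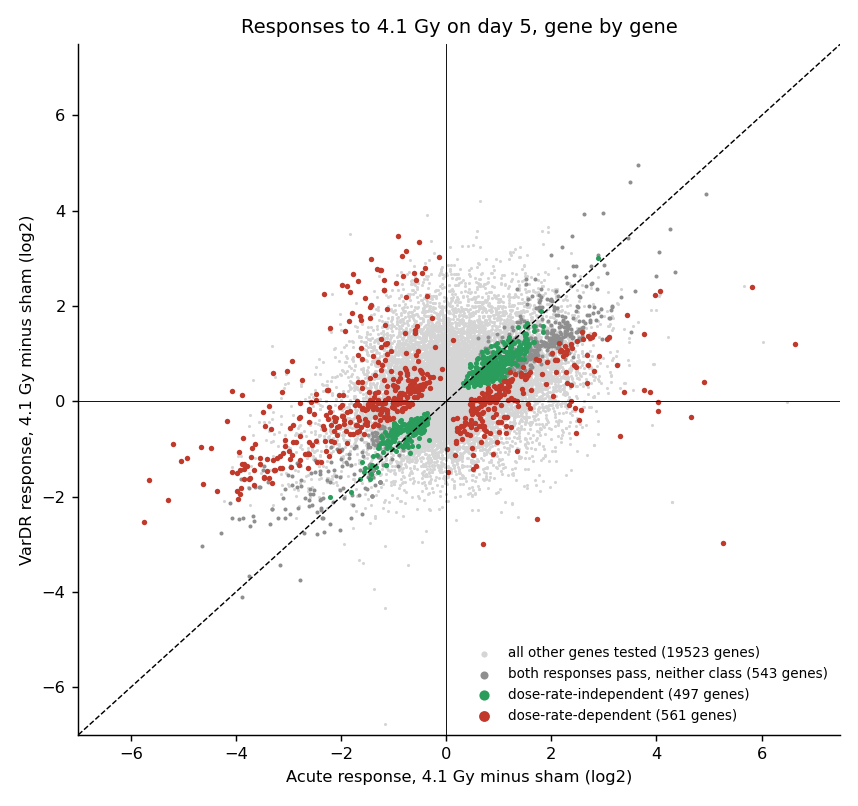
Each point is 1 of 21124 genes tested, placed by its acute response (x axis, 4.1 Gy minus sham, log2) and its VarDR response (y axis, 4.1 Gy minus sham, log2); the dashed line marks equal responses. By definition, the 561 dose-rate-dependent genes (red) lie away from the line. The 497 dose-rate-independent genes that are not also dependent (green) lie near it, also by definition.

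B cell genes fell in both exposures and fell further after acute exposure. All 18 genes of the B cell receptor complex and surface fell in the acute response, with a median of -3.60 log2, and all 18 fell in the VarDR response, with a median of -1.44 log2, where 9.1% and 3.38% of all genes tested fell. The difference of responses passed for 16 of the 18, all negative (1.65% of all genes), with a list median of -2.03 log2 against -0.04 log2 over all genes. With values as deposited it was 15 of 18, again all negative, and without the libraries over 0.5% liver markers it was 15. Cd72 (-0.79) and Cd37 (-0.63), both B cell membrane proteins, had log2 differences that did not pass.

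Fcer2a, the low-affinity IgE receptor CD23 of mature follicular B cells, lies at chr8:3681737-3694175 (GRCm38, GENCODE annotation) and stood at 15.0, 25.8 and 44.4 in Acute 4.1 Gy libraries (lowest, median and highest of 6), against 1164, 1307 and 1407 in Acute shams. It stood at 226, 266 and 614 in VarDR 4.1 Gy libraries, against 731, 969.9 and 1126 in VarDR shams. All 6 irradiated libraries lay below all 6 shams in each mode, and all 6 acute below all 6 VarDR irradiated ones, while Acute shams exceeded VarDR shams by 0.47 log2, which did not pass (adjusted p = 0.351, limma). The acute response was -5.66 log2 and the VarDR response -1.65 log2, a difference of -4.01 ± 0.35 log2 (SE) (adjusted p = 1.93e-13, limma).

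Cr2, the complement receptor CD21 of the B cell co-receptor, had 13.2, 43.3 and 99.7 in Acute 4.1 Gy libraries and 1036, 1263 and 1331 in Acute shams. Its values were 197, 466 and 897 in VarDR 4.1 Gy libraries and 736, 1125 and 1503 in VarDR shams, where the groups overlapped. The difference of responses was -3.78 ± 0.39 log2 (SE) (adjusted p = 3.65e-11, limma). Ighd, the heavy chain of IgD on mature naive B cells, had 76.2, 119.9 and 156 in Acute 4.1 Gy libraries and 3763, 4468 and 4842 in Acute shams, against 540.4, 896 and 998 in VarDR 4.1 Gy libraries and 2644, 3434 and 3917 in VarDR shams. No library of either irradiated group reached its shams, and the difference was -3.23 ± 0.30 log2 (SE) (adjusted p = 1.1e-12, limma).

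Cd79a, Cd79b, Ms4a1 and Ighm had smaller differences than Fcer2a, Cr2 and Ighd. Cd79a, a signalling chain of the B cell receptor, had 194, 290.3 and 357 in Acute 4.1 Gy libraries and 2900, 3552 and 4060 in Acute shams. In the VarDR arm it had 709, 858 and 952 in 4.1 Gy libraries and 2411, 2798 and 3368 in shams. The groups were separate in both arms, and the difference of responses was -1.90 ± 0.26 log2 (SE) (adjusted p = 5.38e-07, limma). Log2 differences were -1.88 for Cd79b, the partner chain, -1.84 for Ms4a1, which encodes CD20, and -1.09 for Ighm, the IgM heavy chain, all passing. Ighm did not pass with quantile normalization, with values as deposited or without the libraries over 0.5% liver markers.

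Of 10 B lineage regulators, all fell after acute exposure (median -3.21 log2) and 8 after VarDR exposure (median -1.11 log2), and 6 had a negative difference that passed, 5 with values as deposited. Ebf1, a transcription factor that specifies the B lineage, had 55.0, 92.8 and 154 in Acute 4.1 Gy libraries and 725, 1233 and 1811 in Acute shams, and 255, 479.7 and 988 in VarDR 4.1 Gy libraries and 571, 908 and 1531 in VarDR shams. The acute groups were separate and the VarDR groups overlapped, with a difference of -2.71 ± 0.37 log2 (SE) (adjusted p = 4.07e-07, limma). Pax5, which maintains B cell identity, differed by -2.57 log2 (adjusted p = 1.46e-06, limma), and Fcrl1, an Fc receptor-like protein of B cells, by -2.13 log2 (adjusted p = 6.51e-07, limma). Bach2, a repressor in B and T cells, had a difference of -1.28 log2 that did not pass, and its highest VarDR 4.1 Gy value, 2504 in replicate 6, stood far above the rest of that group. Among 12 plasma cell and antibody genes, 1 difference was negative (Mzb1, a chaperone of antibody assembly, -1.81 log2) and 1 positive (Xbp1, a secretory cell regulator, 0.74 log2), and neither passed without the libraries over 0.5% liver markers, while as deposited the list held 3 positive calls and 1 negative one.

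MHC class II genes, which encode the proteins that present peptides to helper T cells on B cells, dendritic cells and monocytes, held genes whose falls lay within 2-fold of each other and genes that fell further after acute exposure. Of 11 genes, 10 fell in the acute response and 11 in the VarDR response, with medians of -1.46 and -1.38 log2. The difference passed for 5, with 4 negative and 1 positive, and 6 of the 11 were dose-rate-independent (2.36% of all genes). The 6 were the classical chains H2-Aa, H2-Ab1 and H2-Eb1, the peptide-loading chain H2-DMa, the invariant chain Cd74 and Ciita, the transactivator of the class II genes. Those 4 with a negative difference were H2-Oa and H2-Ob, the chains of H2-O, which modulates peptide loading in B cells, with H2-DMb2 and H2-Eb2. With values as deposited, 7 differences of the list passed as positive and the same count of 4 as negative, so the class of the 6 depends on the rescaling, and 2 of the 11 list members met the definition without the libraries over 0.5% liver markers.

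The promoter stretches of 4 of these genes are shown because they carry a shared element while their responses to dose rate differed. They are the 250 bases before the annotated start in RefSeq (build GRCm38.p6), 5′ to 3′ on the gene's strand, with capitals marking TGATTGG, the inverted CCAAT or Y box of class II promoters. H2-Ob lies at chr17:34238655-34238904 (+), H2-Oa at chr17:34092129-34092378 (+), H2-Aa at chr17:34287824-34288073 (-) and H2-Eb1 at chr17:34305617-34305866 (+).
H2-Ob: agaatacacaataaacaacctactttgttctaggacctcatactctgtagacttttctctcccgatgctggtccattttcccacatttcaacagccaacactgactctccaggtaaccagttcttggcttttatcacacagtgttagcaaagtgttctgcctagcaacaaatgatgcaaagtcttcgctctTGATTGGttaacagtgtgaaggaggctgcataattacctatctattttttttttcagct
H2-Oa: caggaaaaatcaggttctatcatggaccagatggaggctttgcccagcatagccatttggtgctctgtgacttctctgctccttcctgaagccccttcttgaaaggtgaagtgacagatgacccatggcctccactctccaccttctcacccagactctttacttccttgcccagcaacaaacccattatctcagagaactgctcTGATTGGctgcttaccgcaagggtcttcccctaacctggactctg
H2-Aa: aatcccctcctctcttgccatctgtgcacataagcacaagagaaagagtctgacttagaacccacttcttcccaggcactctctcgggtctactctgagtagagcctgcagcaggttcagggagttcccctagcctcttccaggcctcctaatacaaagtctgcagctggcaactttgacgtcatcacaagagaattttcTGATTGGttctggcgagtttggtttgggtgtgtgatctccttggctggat
H2-Eb1: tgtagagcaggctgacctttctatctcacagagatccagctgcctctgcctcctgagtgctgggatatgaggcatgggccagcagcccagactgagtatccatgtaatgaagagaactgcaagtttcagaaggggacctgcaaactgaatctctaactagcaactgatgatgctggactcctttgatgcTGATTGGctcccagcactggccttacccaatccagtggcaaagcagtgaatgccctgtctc
The first base of the element lies 59 bases before the start in H2-Ob, 45 in H2-Oa, 50 in H2-Aa and 61 in H2-Eb1. Searched on both strands as TGATTGG or CCAATCA, it was found in 7 of the 8 class II genes with a sequence in the table, in both kinds of gene, and in 7.23% of 32851 promoter windows of the same length. H2-DMa had no match in this window.

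H2-Ob had 179.6, 233 and 315 in Acute 4.1 Gy libraries and 3403, 3680 and 4123 in Acute shams, against 730.3, 1020 and 1354 in VarDR 4.1 Gy libraries and 2377, 2790 and 3409 in VarDR shams. Its groups were separate in each arm, the acute irradiated libraries were the lowest of all, and the difference of responses was -2.48 ± 0.26 log2 (SE) (adjusted p = 3.65e-11, limma). H2-Oa had 39.3, 50.8 and 65.4 in Acute 4.1 Gy libraries, 575, 721 and 752 in Acute shams, 119, 212 and 265 in VarDR 4.1 Gy libraries and 382, 447 and 536 in VarDR shams, in the same order. Acute shams stood above VarDR shams for H2-Oa (0.60 log2, adjusted p = 0.197, limma). Its difference of responses was -2.56 ± 0.31 log2 (SE) (adjusted p = 1.94e-08, limma), with H2-Eb2 at -2.90 and H2-DMb2 at -1.96 log2, both passing.

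H2-Aa, whose promoter carries the same element, had 3460, 5915 and 8643 in Acute 4.1 Gy libraries and 14133, 14281 and 16944 in Acute shams. It had 3779, 3973 and 4657 in VarDR 4.1 Gy libraries and 9752, 10412 and 12297 in VarDR shams. Irradiated and sham libraries were separate in both arms and the Acute shams exceeded the VarDR shams, and the difference of responses was 0.04 log2 with a 95% interval of -0.46 to 0.53. H2-Eb1 had a difference of -0.06 (-0.56 to 0.45), Cd74 of -0.08 (-0.55 to 0.39), H2-Ab1 of 0.19 (-0.27 to 0.65), H2-DMa of 0.14 (-0.44 to 0.71) and Ciita of -0.01 log2 (-0.55 to 0.54). H2-DMb1, the partner of H2-DMa, had a positive difference of 1.02 log2 (adjusted p = 0.03, limma): its acute response was 0.01 log2 and did not pass, and it fell by 1.01 on the log2 scale after VarDR exposure. That call was lost in 5 of 24 leave-one-out fits, with quantile normalization and without the libraries over 0.5% liver markers. H2-DMb1 and H2-DMb2 are close copies, so the split of reads between them is uncertain.

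**Figure D2:**
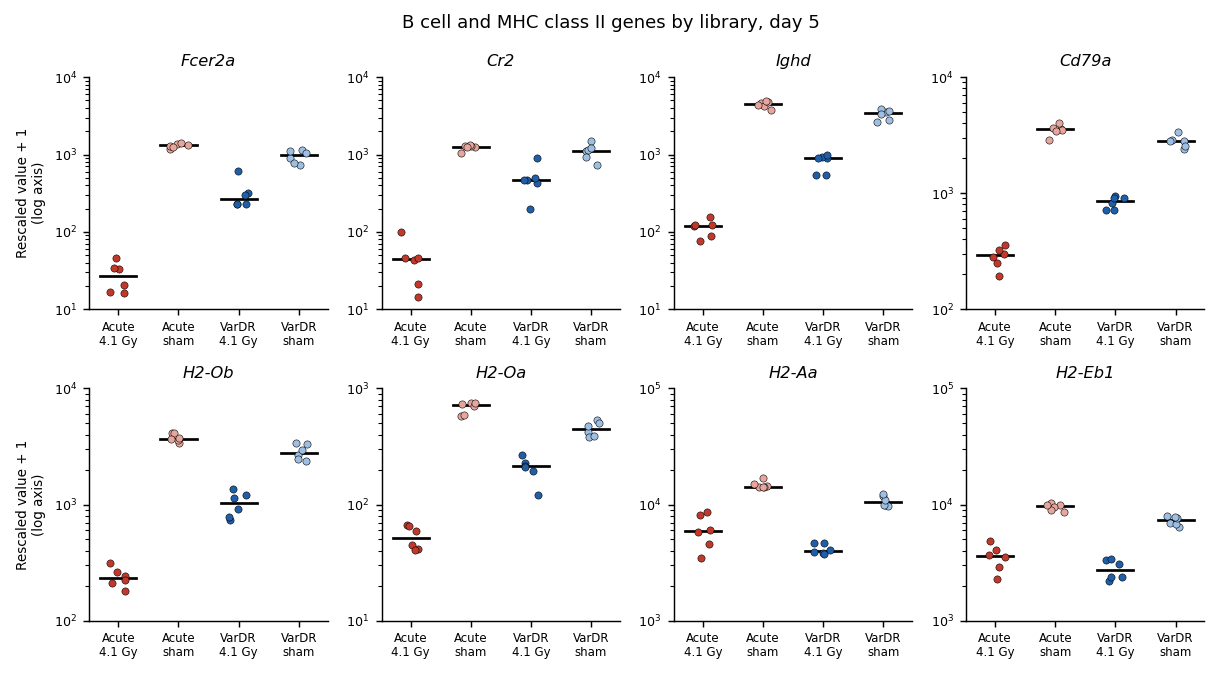
Rescaled value plus 1 (log axis) of 4 B cell and 4 MHC class II genes in each of the 24 libraries by group; points are libraries and bars the group median. Acute 4.1 Gy libraries lie below VarDR 4.1 Gy libraries for Fcer2a, Cr2, Ighd, Cd79a, H2-Ob and H2-Oa, whereas H2-Aa and H2-Eb1 overlap between the 2 irradiated groups.

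Targets of p53, the transcription factor that DNA damage activates, held genes that rose in both exposures. Of 14 arrest and feedback targets, 7 rose and 3 fell in the acute response and 9 rose and 0 fell in the VarDR response. Of all genes, 9.75% rose and 9.1% fell after acute exposure, and 5.41% rose and 3.38% fell after VarDR exposure. Of 12 apoptosis targets, 5 rose and 1 fell after acute and 6 rose and 0 fell after VarDR exposure, and of 12 repair and metabolism targets 2 rose and 4 fell after acute and 0 rose and 1 fell after VarDR exposure. The difference of responses passed for 1, 1 and 0 genes of these lists, where 2.66% of all genes passed, with medians of -0.36, -0.34 and -0.22 log2. In these lists 4, 3 and 1 genes were dose-rate-independent, against 2.36% of all genes. As deposited, 5, 4 and 6 genes had a positive difference that passed, so the direction depends on the rescaling. The 2 negative calls after rescaling were the antiproliferative gene Btg2 (-0.80 log2) and Trp53i11 (-1.02 log2), both with an acute fall, and neither passed as deposited or without the libraries over 0.5% liver markers.

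Phlda3, a p53 target at chr1:135766119-135769136 that inhibits AKT, had the largest smaller response of the dose-rate-independent genes that rose. It had 325, 375 and 576 in Acute 4.1 Gy libraries and 36.5, 52.1 and 69.2 in Acute shams, and 223, 326 and 358 in VarDR 4.1 Gy libraries and 15.7, 37.5 and 85.2 in VarDR shams. Every irradiated library exceeded every sham in both arms. The acute response was 2.89 and the VarDR response 3.01 log2, with a difference of -0.12 and a 95% interval of -0.85 to 0.60.

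Ccng1, cyclin G1, had 2214, 2660 and 3124 in Acute 4.1 Gy libraries and 1089, 1138 and 1264 in Acute shams, and 2038, 3350 and 4109 in VarDR 4.1 Gy libraries and 1200, 1289 and 1380 in VarDR shams. Again no irradiated library overlapped a sham, and the difference was -0.14 log2 (-0.46 to 0.18), but 0.82 log2 as deposited. Bax, a mitochondrial effector of apoptosis, had a difference of -0.36 (-0.72 to 0.00), the nuclease gene Aen of -0.31 (-0.94 to 0.33) and Zmat3, an RNA-binding p53 target, of 0.12 log2 (-0.71 to 0.94), and all 3 are dose-rate-independent by the interval.

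For the cell cycle inhibitor Cdkn1a both responses passed, but the interval of the difference was wide. It had 110.1, 163 and 264 in Acute 4.1 Gy libraries, 1.14, 28.8 and 56.0 in Acute shams, 239.6, 358 and 450 in VarDR 4.1 Gy libraries and 0, 42.2 and 84.3 in VarDR shams. Irradiated and sham libraries were separate in both arms, and the difference was -0.97 log2 (-2.59 to 0.65, adjusted p = 0.624, limma). The death receptor gene Eda2r had a difference of -1.31 (-3.46 to 0.85) and the p53-induced noncoding RNA Trp53cor1 of 0.04 log2 (-1.91 to 1.98), and neither passed. Mdm2, the p53 ubiquitin ligase, had 932, 1017 and 1158 in Acute 4.1 Gy libraries and 676, 879 and 988 in Acute shams, and 1187, 1375 and 1639 in VarDR 4.1 Gy libraries and 446, 893 and 1076 in VarDR shams. Its acute response (0.27 log2) did not pass and its VarDR response (0.76 log2) did, while the difference of -0.50 log2 did not pass (adjusted p = 0.133, limma). Psrc1, a spindle gene induced by p53, showed the same order, with an acute response of 0.50, a VarDR response of 1.88 and a difference of -1.38 log2 (adjusted p = 0.101, limma). Pmaip1, which encodes NOXA, the damage-binding gene Ddb2 and the phosphatase gene Ptp4a3 had differences of 0.98, -0.76 and -1.14 log2 that did not pass.

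**Figure D3:**
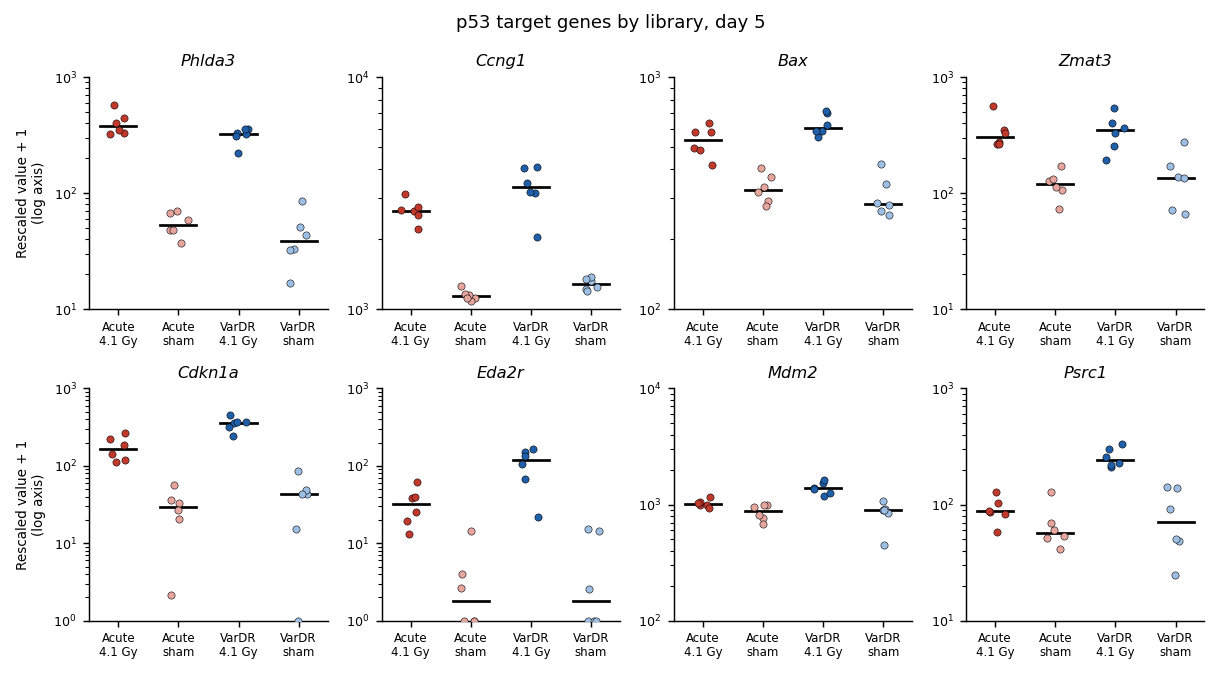
Rescaled value plus 1 (log axis) of 8 p53 target genes in each of the 24 libraries by group; points are libraries and bars the group median. Phlda3, Ccng1 and Cdkn1a lie above their shams in all irradiated libraries of both arms, and Mdm2 and Psrc1 lie above all of their shams in the VarDR arm and overlap them in the acute arm.

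Other dose-rate-independent genes with large responses came from varied classes. Nacc2, a BTB-domain repressor, had responses of 1.81 log2 after acute and 1.89 log2 after VarDR exposure, and Smim4, a small mitochondrial protein gene, 1.85 and 1.59. Tsc22d1, a leucine zipper regulator, had 64609, 95284 and 117924 in Acute 4.1 Gy libraries and 21405, 30299 and 36761 in Acute shams, and 64584, 74751 and 90711 in VarDR 4.1 Gy libraries and 16815, 26880 and 34681 in VarDR shams. Every irradiated library exceeded its shams, and the difference was 0.08 log2 (-0.53 to 0.69). Sec14l5 had 1.54 and 1.64 log2. Beside Ciita, H2-Eb1 and H2-Aa, the genes of this class with the largest falls were B3gnt8, a glycosyltransferase gene, at -1.82 log2 after acute and -1.91 log2 after VarDR exposure, and Rnf122, a ubiquitin ligase gene, at -1.46 and -1.63 log2.

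In 17 genes both responses passed in opposite directions. The difference passed in all 17, which adds no support of its own, since it is built from the same 2 responses. For 13 the acute response was the fall and the VarDR response the rise, among them Fos, Fosb, Dusp1, Ddit4, Ets2, Klf3, Mafk, Pde1b, Pvt1 and Zfp609, and for 4, Bak1, Manf, Mapk7 and Ncaph, the acute response was the rise. They were chosen after their values were seen. Immediate-early genes are switched on within minutes of a stimulus without new protein synthesis. Of 28 immediate-early genes, also listed after values were seen, 2 rose and 9 fell after acute exposure and 6 rose and 0 fell after VarDR exposure, and 7 had a negative difference and 0 a positive one. Of all genes, 9.75% rose and 9.1% fell after acute exposure, 5.41% rose after VarDR exposure and 1.65% had a negative difference. The 6 VarDR rises were 3 without VarDR 4.1 Gy replicate 6 and up to 7 with another library left out, 3 with quantile normalization and 1 without the libraries over 0.5% liver markers. The count of 7 negative differences was 5 to 9 when a library was left out, 2 without the libraries over 0.5% liver markers and 4 lower with 8 higher as deposited.

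Dusp1 and Fos both fell after acute and rose after VarDR exposure. Their promoters are shown for this and because the windows hold TGACGT, the core of the cyclic AMP response element, printed in capitals. They are 250 bases before the RefSeq start (GRCm38.p6), at chr17:26508473-26508722 (-) for Dusp1 and chr12:85473640-85473889 (+) for Fos. The Dusp1 window lies inside the wider GENCODE span of the gene given below.
Dusp1: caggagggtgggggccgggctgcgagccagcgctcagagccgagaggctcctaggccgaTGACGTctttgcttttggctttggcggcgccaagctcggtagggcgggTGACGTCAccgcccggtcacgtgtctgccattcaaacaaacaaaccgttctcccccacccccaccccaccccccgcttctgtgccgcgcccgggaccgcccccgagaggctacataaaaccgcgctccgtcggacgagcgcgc
Fos: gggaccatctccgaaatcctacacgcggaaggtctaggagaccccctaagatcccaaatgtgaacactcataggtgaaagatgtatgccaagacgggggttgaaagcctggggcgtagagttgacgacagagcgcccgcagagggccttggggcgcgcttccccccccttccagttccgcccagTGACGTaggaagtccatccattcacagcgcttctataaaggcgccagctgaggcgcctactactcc
Searched on both strands as TGACGT or ACGTCA, the element matched 3 times in Dusp1, with 2 matches that overlap in TGACGTCA, and 1 time in Fos, 66 bases before the start. Fosb had no match in its window. Of the immediate-early genes, only the windows of Dusp1, Fos and Fosb were examined, so the others are not described. The motif was in 6.47% of 32851 promoter windows of the same length.

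Dusp1, a phosphatase gene at chr17:26505590-26562128 that switches off MAP kinases, had 218, 398 and 757 in Acute 4.1 Gy libraries and 528, 924 and 1702 in Acute shams. It had 1075, 1538 and 1966 in VarDR 4.1 Gy libraries and 258, 539 and 727 in VarDR shams. The acute groups overlapped and the VarDR irradiated libraries all exceeded their shams. The acute response was -1.17 log2, the VarDR response 1.60 log2 and the difference -2.77 ± 0.37 log2 (SE) (adjusted p = 2.74e-07, limma), which passed in every alternative run and with any library left out.

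Fos, a subunit of the AP-1 transcription factor, had 137, 236 and 488 in Acute 4.1 Gy libraries and 283, 641 and 985 in Acute shams, and 559, 839 and 1919 in VarDR 4.1 Gy libraries and 158, 408 and 628 in VarDR shams. The groups overlapped in both arms, and the difference was -2.37 ± 0.51 log2 (SE) (adjusted p = 0.00259, limma). Its paralogue Fosb differed by -3.21 and Junb, another AP-1 subunit, by -0.95 log2, and neither they nor Fos passed without the libraries over 0.5% liver markers. Sik1, a kinase induced by cyclic AMP, differed by -2.01 log2 with an acute response of -1.61 and a VarDR response of 0.40 log2 that did not pass. Klf2, a factor of lymphocyte quiescence, differed by -0.66 log2. As deposited, the differences of Junb, Btg2, Klf2, Klf3 and Mafk were positive without passing.

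Ddit4, an inhibitor of mTORC1 induced by stress and glucocorticoids, had 259.7, 397 and 553 in Acute 4.1 Gy libraries and 509, 708 and 765 in Acute shams, and 472, 595 and 682 in VarDR 4.1 Gy libraries and 231, 287 and 393 in VarDR shams. The VarDR groups were separate, the acute groups overlapped, and all Acute shams exceeded all VarDR shams (1.22 log2, adjusted p = 0.0608, limma). Its difference was -1.78 ± 0.39 log2 (SE) (adjusted p = 0.00309, limma), which did not pass as deposited or without the libraries over 0.5% liver markers. Pvt1, a noncoding RNA next to Myc, differed by -2.22 (adjusted p = 0.000102, limma), the cohesin loader cofactor gene Zfp609 by -2.34 and the transcription factor gene Ets2 by -1.41 log2. Klf3, a repressor of the Krüppel-like family, differed by -0.82, Mafk, a small Maf protein gene, by -0.93, and Pde1b, a phosphodiesterase gene, by -1.49 log2, but as deposited none of Ets2, Klf3, Mafk and Pde1b passed. In the other direction, Manf, a secreted protein of the endoplasmic reticulum stress response, differed by 1.16 (adjusted p = 0.000528, limma), the apoptosis effector Bak1 by 1.01, the kinase ERK5 gene Mapk7 by 1.44 and the condensin gene Ncaph by 1.81 log2, the last pair lost without the libraries over 0.5% liver markers.

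Il1b, the inflammatory cytokine interleukin-1 beta, was among the 66 genes with a VarDR response alone. It had 614, 1132 and 1973 in Acute 4.1 Gy libraries and 944, 2024 and 3326 in Acute shams, and 2069, 3820 and 6017 in VarDR 4.1 Gy libraries and 755, 1341 and 2306 in VarDR shams. Irradiated and sham libraries overlapped in both arms, and the difference was -2.09 ± 0.47 log2 (SE) (adjusted p = 0.00492, limma), lost without the libraries over 0.5% liver markers. Of 16 NF-kB inflammatory genes, 4 had a negative difference and 0 a positive one, against 1.65% and 1.01% of all genes. Beside Il1b these were the prostaglandin synthase gene Ptgs2 (-4.58), the apoptosis inhibitor gene Birc3 (-0.88) and Nfkbia (-0.84 log2), which encodes the NF-kB inhibitor. None of the 4 passed without those libraries, while as deposited 7 differences were positive and 1 negative. Other genes with a VarDR response alone, taken by smallest p after values were seen, were the splicing factor gene Sf3b4 (1.28 log2, with a VarDR response of -1.12 log2), Pdap1 (0.83), Hspa12b (-3.90) and Nup210l (-3.17 log2). Pdap1 and Hspa12b did not pass without the libraries over 0.5% liver markers, and the shams of Nup210l differed. Hspa12b stood at 0 to 21.1 in VarDR shams and 21.8 to 60.8 in VarDR 4.1 Gy libraries. Nup210l stood at 0 to 47.6 in VarDR shams and 30.3 to 62.6 in VarDR 4.1 Gy libraries, so both folds rest on low values.

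Cxcr4, the chemokine receptor that holds leukocytes in bone marrow, was among the 343 genes with an acute response alone. It had 524, 672 and 1208 in Acute 4.1 Gy libraries and 3688, 4309 and 4905 in Acute shams, and 2155, 2464 and 2923 in VarDR 4.1 Gy libraries and 1497, 2727 and 3060 in VarDR shams. The acute groups were separate, the VarDR groups overlapped, and the Acute shams exceeded the VarDR shams by 0.77 log2 (adjusted p = 0.14, limma). The difference of responses was -2.56 ± 0.33 log2 (SE) (adjusted p = 9.29e-08, limma). Tsc22d3, the glucocorticoid-induced leucine zipper, fell to 3033, 3242 and 4857 in Acute 4.1 Gy libraries, against 8674, 9631 and 10859 in Acute shams, with 5384, 7158 and 8488 in VarDR 4.1 Gy libraries and 4731, 6628 and 7005 in VarDR shams. Its acute groups were separate, Acute shams stood above VarDR shams (0.64 log2), and the difference was -1.68 ± 0.24 log2 (SE) (adjusted p = 1.31e-06, limma).

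**Figure D4:**
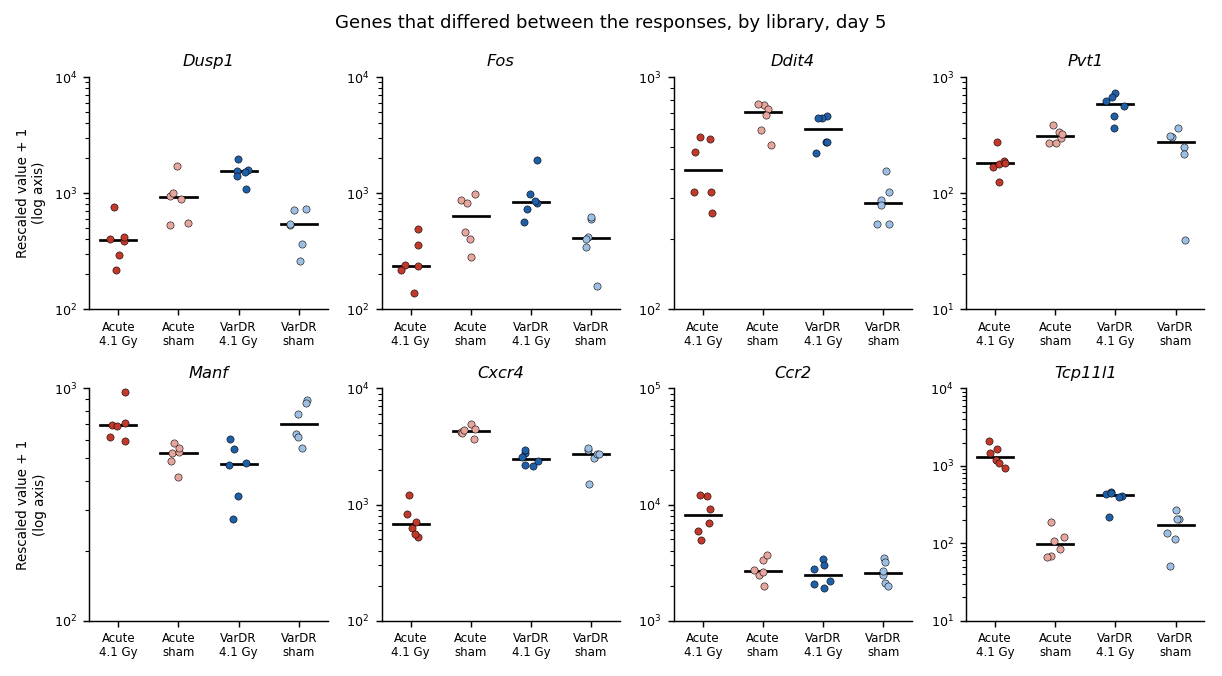
Rescaled value plus 1 (log axis) of 8 dose-rate-dependent genes in each of the 24 libraries by group; points are libraries and bars the group median. The medians of Dusp1, Fos, Ddit4 and Pvt1 are below the sham after acute and above it after VarDR exposure, that of Manf shows the reverse, and Cxcr4 and Ccr2 are apart from all of their shams in the acute arm.

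Of the genes with a positive difference, Mlec had the smallest p. Mlec, at chr5:115142981-115158179, encodes malectin, a sugar-binding protein of the endoplasmic reticulum, and had 4990, 5314 and 5623 in Acute 4.1 Gy libraries and 1831, 2095 and 2148 in Acute shams, and 2068, 2461 and 2909 in VarDR 4.1 Gy libraries and 2139, 2650 and 3416 in VarDR shams. Only the acute groups were separate, and the difference was 1.47 ± 0.15 log2 (SE) (adjusted p = 2.22e-11, limma). Dstn, the actin-severing protein destrin, rose in both arms, with 7747, 10946 and 16229 in Acute 4.1 Gy libraries and 1131, 1344 and 1472 in Acute shams, and 3572, 4119 and 4967 in VarDR 4.1 Gy libraries and 1254, 1646 and 2068 in VarDR shams. All irradiated libraries exceeded their shams, and the difference was 1.74 ± 0.25 log2 (SE) (adjusted p = 1.3e-06, limma). Lgals3bp, a secreted galectin-3 ligand, differed by 1.66 log2 (adjusted p = 0.000102, limma). Zbbx was listed at 0 in all 6 Acute shams and at 6.43, 15.5 and 34.7 in Acute 4.1 Gy libraries, so no fold is given.

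Gstt1, a glutathione transferase, had the largest positive difference of the ranked genes. It had 2157, 4013 and 5652 in Acute 4.1 Gy libraries and 18.5, 39.3 and 63.5 in Acute shams, and 159, 495 and 1149 in VarDR 4.1 Gy libraries and 28.1, 247 and 1226 in VarDR shams. The acute groups were far apart and the VarDR groups overlapped, and Acute minus VarDR shams gave -2.34 log2 (adjusted p = 0.243, limma). The difference was 5.42 ± 1.39 log2 (SE) (adjusted p = 0.0174, limma), and it did not pass with a pseudocount of 0.1. In the VarDR arm the Gstt1 level went with the share of liver markers. Among VarDR 4.1 Gy libraries it was 1149 and 1026 at liver shares of 2.23 and 3.41% and 159 at 0.0936%, and among VarDR shams it was 1226 at 4.22% and 28.1 at 0.0159%. In Acute 4.1 Gy libraries it was 2157 at the highest share of 2.41% and 5062 at the lowest of 0.0266%. Without the libraries over 0.5% liver markers the difference was 5.47 log2 (adjusted p = 0.0464, limma). Mxra7, a matrix remodelling associated gene, had 76.4, 207 and 239.8 in Acute 4.1 Gy libraries and 4.07, 10.7 and 17.9 in Acute shams, and 15.8, 23.8 and 48.3 in VarDR 4.1 Gy libraries and 2.96, 26.6 and 117 in VarDR shams. The acute groups were separate and the difference was 4.03 ± 0.69 log2 (SE) (adjusted p = 5.21e-05, limma).

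Olr1, the oxidised low-density lipoprotein receptor LOX-1, had 801, 1015 and 1421 in Acute 4.1 Gy libraries and 8.29, 17.2 and 48.9 in Acute shams, and 52.2, 111 and 226 in VarDR 4.1 Gy libraries and 1.14, 19.9 and 216 in VarDR shams. It rose in both arms, and the difference of 3.42 ± 0.90 log2 (SE) (adjusted p = 0.0196, limma) was lost without the libraries over 0.5% liver markers. Tcp11l1 rose in both arms as well, with 931, 1316 and 2081 in Acute 4.1 Gy libraries and 64.8, 95.3 and 188 in Acute shams, and 218, 422 and 453 in VarDR 4.1 Gy libraries and 50.5, 169 and 269 in VarDR shams. Its acute groups were separate, its VarDR groups overlapped, and the difference of 2.36 ± 0.46 log2 (SE) (adjusted p = 0.000606, limma) passed in every alternative run. The other large positive differences were those of Dnah7a (3.69), Plekhh3 (2.94), Nt5dc2 (2.76), Tmem273 (2.42) and the giant muscle protein gene Neb (2.37 log2). None of these 5 passed without the libraries over 0.5% liver markers, and Dnah7a lost its call in 11 of 24 leave-one-out fits. The fold of Dnah7a rests on low values, with 0 to 9.71 in VarDR 4.1 Gy libraries.

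Large negative differences outside the B cell lists came from genes of varied classes. Crisp3, which encodes a secreted protein, had 0, 0.282 and 1.64 in Acute 4.1 Gy libraries and 45.1, 79.8 and 112 in Acute shams. In the VarDR arm it had 0, 7.77 and 11.4 in 4.1 Gy libraries and 13.6, 42.5 and 73.2 in shams. It fell in both arms without overlap, and the difference of -3.23 ± 0.74 log2 (SE) (adjusted p = 0.00568, limma) was lost without the libraries over 0.5% liver markers. Log2 differences were -3.53 for the calcium channel gene Ryr2, -3.43 for Lmln, -3.33 for the transcription factor gene Foxp2, -3.20 for the vomeronasal receptor gene Vmn1r18 and -3.07 for the bicarbonate transporter gene Slc4a8. Of these, Lmln lost its call in 11 of 24 leave-one-out fits, Vmn1r18 in 17, Foxp2 in 6 and Ryr2 and Slc4a8 in 0, and of the 5 only Foxp2 passed without the libraries over 0.5% liver markers. Their folds rest on low values. VarDR shams held 6.06 to 74.1 for Ryr2, 4.06 to 36.7 for Lmln, 0.936 to 52.1 for Foxp2, 0 to 41.1 for Vmn1r18 and 8.22 to 47.7 for Slc4a8.

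Monocyte genes had 3 positive differences among 16 and 0 negative ones, where 1.01% of all genes were positive calls, with a list median of 0.64 log2. Ccr2, the chemokine receptor that draws inflammatory monocytes into tissue, had 4956, 8064 and 11980 in Acute 4.1 Gy libraries and 1979, 2687 and 3704 in Acute shams, and 1908, 2473 and 3401 in VarDR 4.1 Gy libraries and 1981, 2591 and 3468 in VarDR shams. Only the acute groups were separate, and the difference was 1.60 ± 0.32 log2 (SE) (adjusted p = 0.000933, limma). F13a1, coagulation factor XIII of monocytes and platelets, rose in both arms and differed by 1.16 log2, and the third was Ace (1.03 log2), which fell after VarDR exposure (-0.84 log2). Without the libraries over 0.5% liver markers 1 difference of the list passed, and as deposited 14.

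Platelet genes rose in both arms, and the size of the acute excess was not settled gene by gene. Of 18 genes, 18 rose in the acute response (median 2.22 log2) and 17 in the VarDR response (median 1.43 log2), where 9.75% and 5.41% of all genes rose. All 18 differences were positive, from 0.56 to 1.57 log2 with a median of 0.95, but only that of Pf4, platelet factor 4, passed (1.00 log2, adjusted p = 0.0391, limma), and 11 of 24 leave-one-out fits lost it. Quantile normalization gave 8 calls, library weights 11, the 4 groups of day 5 alone 7 and values as deposited 18. Thbs1, thrombospondin of platelet granules, had 142534, 186660 and 307288 in Acute 4.1 Gy libraries and 8419, 13265 and 17252 in Acute shams, and 75451, 87774 and 169685 in VarDR 4.1 Gy libraries and 9598, 17732 and 20084 in VarDR shams. The irradiated libraries of both arms lay far above their shams and overlapped each other, with a difference of 1.35 log2 (adjusted p = 0.102, limma). The integrin chain genes Itgb3 and Itga2b had differences of 1.18 and 0.85, the chemokine gene Ppbp of 1.10 and the platelet tubulin gene Tubb1 of 0.58 log2, and none of these passed.

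T cell, NK cell and granulocyte lists are set against all genes, of which 2.66% had a difference that passed, 9.75% rose and 9.1% fell after acute exposure, and 5.41% rose after VarDR exposure. Of 23 T cell genes, 4 rose and 5 fell after acute exposure and 0 changed after VarDR exposure, and 1 difference passed: Ccr7, which guides naive T cells and B cells to lymph nodes, at -1.39 log2 (adjusted p = 0.00144, limma), a call lost without the libraries over 0.5% liver markers, while as deposited 13 calls were positive and 0 negative. Cd8a, the cytotoxic co-receptor, had a difference of -1.08 log2 that did not pass (adjusted p = 0.0501, limma). Of 15 NK and cytotoxic genes, 9 rose after acute exposure and 0 after VarDR exposure, with medians of 0.95 and 0.31 log2, yet 0 differences passed, 13 as deposited, with the granzyme B gene Gzmb (1.26, 0.40 to 2.13) and Tbx21, the T-bet gene (1.01 log2, 0.26 to 1.77), at the smallest p, each with its unadjusted 95% interval. Of 15 mature neutrophil genes, 5 rose after acute and 9 after VarDR exposure with 0 differences passing, and the receptor genes Clec4e (-1.23 log2) and Trem1 (-1.26 log2) had the smallest p. Of 11 immature neutrophil granule genes tested, 2 rose and 0 fell after acute exposure and 0 changed after VarDR exposure. The acute rises numbered 0 to 2 with 1 library left out. In this list 0 differences passed, with Fcnb at 2.87 and Chil3 at 1.48 log2. As deposited, 3 differences passed as positive in the mature and 3 in the immature neutrophil list. Among 14 eosinophil and basophil genes only the basophil IgE receptor chain Ms4a2 (-2.40 log2) passed, lost as deposited, where 3 others were positive, and Il5ra, the interleukin-5 receptor, at -1.33 log2 did not.

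Red cell and ribosomal genes depended on VarDR 4.1 Gy replicate 6, which had the lowest haemoglobin share of its group (1.89%, against up to 6.43%). Of 9 haemoglobin genes tested, 5 fell and 1 rose after acute exposure and 0 changed after VarDR exposure. Only the difference of the theta globin gene Hbq1a passed (-2.19 log2), 4 passed without that replicate and 1 was negative and 1 positive as deposited, and globin was cleared from the RNA of all libraries. Hba-a2, an adult alpha globin gene, had a difference of -1.53 log2 that did not pass (adjusted p = 0.122, limma). Of 29 red cell and haem synthesis genes only Ppox, an enzyme of haem synthesis, passed (-1.04 log2), against 3 genes without replicate 6 and 7 in the positive direction as deposited, and Alas2, the erythroid enzyme that starts haem synthesis, had a difference of -1.48 log2 that did not pass (adjusted p = 0.0642, limma). Of 84 cytosolic ribosomal protein genes, 74 fell after acute exposure (median -0.82 log2) and 15 after VarDR exposure (median -0.38 log2), where 9.1% and 3.38% of all genes fell. Without replicate 6 the VarDR response had 0 falls and 2 rises in the list, with a median of -0.09 log2, and its falls numbered 0 to 31 with each library left out in turn. The difference passed for 1, Rps14 (-0.78 log2, lost in 21 of 24 leave-one-out fits), and for 54 without replicate 6, all negative, but for 32 in the positive direction with values as deposited. Rpl13 had a difference of -0.74 log2 that did not pass (adjusted p = 0.0518, limma).

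The 7SL RNAs of the signal recognition particle, Rn7s1 and Rn7s2, took 18.4 ± 7.69% of the signal in Acute 4.1 Gy libraries and 47.0 ± 3.40% in Acute shams (SD, n = 6 each). They took 35.9 ± 5.0% in VarDR 4.1 Gy libraries and 44.8 ± 7.97% in VarDR shams (SD, n = 6 each). They were the 2 of 7 structural noncoding RNAs tested whose difference passed. Both genes are near-identical copies with equal values, and their difference was -1.69 ± 0.40 log2 (SE) (adjusted p = 0.00721, limma), which did not pass with quantile normalization, with values as deposited or without the libraries over 0.5% liver markers. How far this share moved the other results was not tested.

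Lists of DNA repair, proliferation, interferon and antioxidant genes were read against the 2.66% of all genes whose difference passed. Of 30 DNA damage sensing and repair genes, 2 differences passed, those of Bard1 (-1.66 log2), the partner of BRCA1, and the Fanconi gene Fanci (-1.32 log2), both lost without the libraries over 0.5% liver markers and as deposited, where 18 others of the list were positive. Of 30 cell cycle genes 0 passed, 16 as deposited, with Kif20a at 1.39 and Mcm2 at 0.80 log2, and of 26 interferon-stimulated genes 0 passed, 20 as deposited, with Ifi44 at 3.07 and Isg20 at -1.29 log2. Of 14 NRF2 antioxidant genes 1 passed, the glucose-6-phosphate dehydrogenase gene G6pdx (0.82 log2, lost in 12 of 24 leave-one-out fits), and Hmox1, haem oxygenase, at 0.92 log2 did not. The 13 mitochondrially encoded protein genes had 0 differences that passed, with mt-Nd4 at 0.71 and mt-Nd2 at 0.86 log2. As deposited, 7 NRF2 and 6 mitochondrially encoded genes had a positive difference that passed. Over all genes, 3352 had an unadjusted p under 0.05 for the difference.

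**Figure D5:**
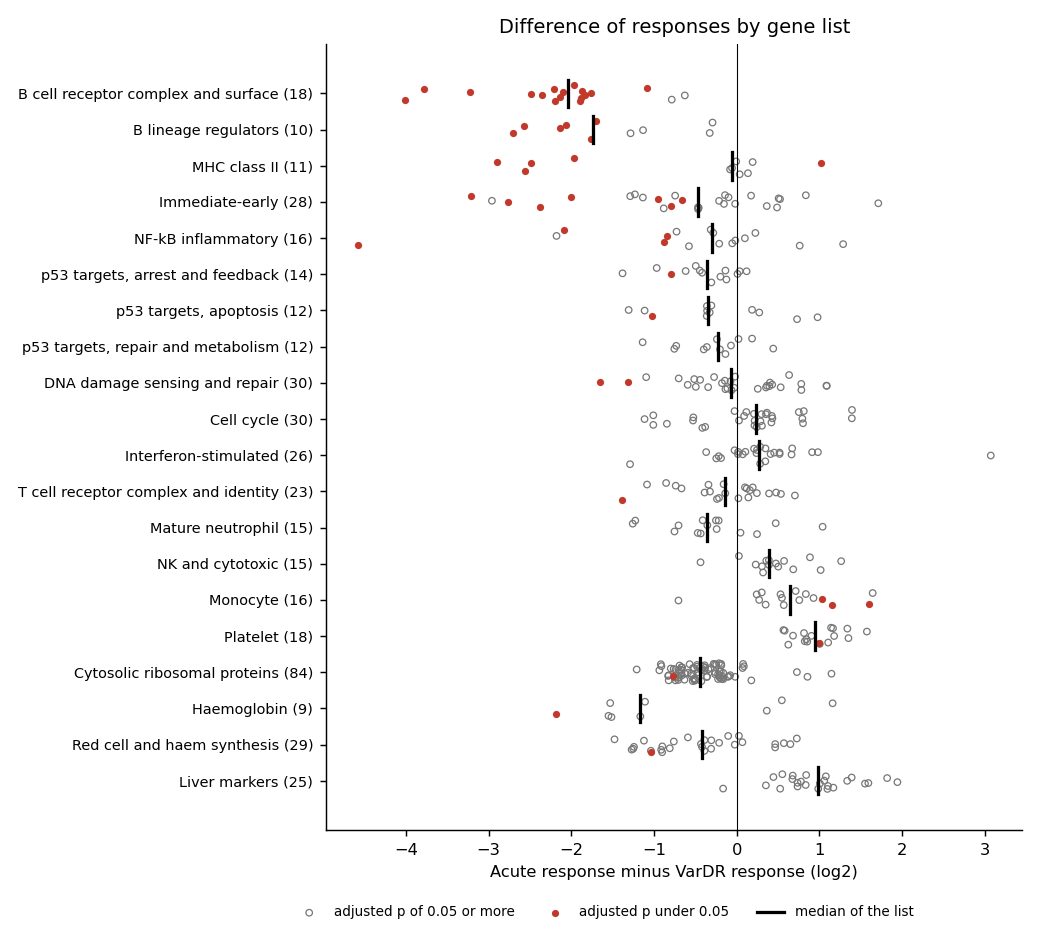
Difference of responses (acute minus VarDR, log2) of each tested member of 20 gene lists, with the number of genes in brackets; filled red points passed an adjusted p of 0.05 and black bars are list medians. B cell genes lie to the left with a median of -2.03, and platelet genes to the right with a median of 0.95 and 1 call; with values as deposited the median of all genes is 0.84 and the medians of the MHC class II, p53 and ribosomal lists are positive.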

How the data were processed

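Whole blood of 80 mice was measured by ribosomal-depleted, globin-cleared stranded total RNA sequencing, 1 library each, per the labels. The authors deposited 1 table of normalized read abundance per gene (signal, never negative, not whole counts), which the submitters' processing notes connect with bcl2fastq 2.19, kallisto 0.44.0, sleuth, DESeq2 and the GRCm38 build. Their normalization is not given in the sources used here. The sequencing depth is unknown, so no counting interval is given. Of 82 value columns 80 match a sample's label and 2 match none and were not used, and 26 rows whose names are dates were left out. The title of the table's sheet names lung and a day that no sample label holds, so its samples were taken from the column names.

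Size factors (median of ratios, from 11349 genes with no 0 in the 80 libraries) were divided out of each column, because irradiated acute libraries stood 1.93-fold above their shams as deposited. The 21124 genes that reached 10 after this in 3 or more libraries were analysed on log2(value + 1), a scale that understates the change of low genes. limma 3.58.1 (R 4.3.3) fitted all 14 groups with a mean-variance trend and robust moderation, and p-values were adjusted over all genes within each comparison (Benjamini-Hochberg, 0.05, two-sided). The design assumed this unit. A count test was not run, since values of low genes were not whole multiples of a common step (1.86 to 45.6% within a tolerance of 0.01).

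The groups, gene lists and comparisons were chosen with earlier results of these data known. Genes named by rule (81) are the 10 highest and 10 lowest differences with a group mean of at least 50, the 5 smallest p in each direction, the 10 dose-rate-independent genes with the largest smaller response, and the 2 members of each list with the smallest p, leaving out predicted genes and antigen receptor segments. Some genes the rule names are not reported here. The other named genes, and the immediate-early list, were chosen after their values were seen. Figures were drawn with matplotlib 3.10.9.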

Additional observations from a re-analysis of the deposited data

Results flagged for a closer look

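The 561 genes whose response differed between acute and VarDR exposure are listed here because the same contrast, irradiated minus sham, differed between the 2 exposure modes by a test of the difference itself. The other entries are single libraries that stood far from the other 5 of their group by Dixon's criterion, which flags about 1 in 20 groups by chance. Values are rescaled abundances.

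VarDR 4.1 Gy replicate 6 was apart most often. It was the highest of its group for the B cell genes Fcer2a (614, against 226 to 316 in the other 5), Bach2 (2504, against 358 to 649) and Cd37 (1781, against 964 to 1147), and for Ciita (1101, against 541 to 678). It was the lowest for Phlda3 (223, against 312 to 358), Smim4 (171, against 345 to 407), Ccng1 (2038, against 3175 to 4109), Rps14 (2147, against 6011 to 8946) and Rpl13 (3464, against 8243 to 12020). Without it the difference of responses passed for 726 genes in place of 561.

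In other VarDR 4.1 Gy libraries, replicate 4 was lowest for Tcp11l1 (218), Chil3 (130) and Trp53cor1 (0), replicate 1 highest for Fcnb (2.47) and replicate 5 highest for Zbbx (1.81). In VarDR shams, replicate 1 was highest for the myeloid genes Chil3 (3557, against 241 to 555) and Fcnb (103, against 0 to 1.27) and for Klf3 (3852). Replicate 2 was lowest for Fanci (52.8), replicate 3 lowest for Junb (1105) and Cxcr4 (1497, against 2520 to 3060), and replicate 4 lowest for Mcm2 (329) and highest for Sf3b4 (437, against 202 to 259). Replicate 5 was lowest for Mdm2 (446, against 852 to 1076) and Pvt1 (38.8, against 215 to 366) and highest for Pmaip1 (385), and replicate 6 was lowest for Neb (28.5, against 158 to 238) and highest for Zbbx (8.45).

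In Acute 4.1 Gy libraries, replicate 1 was highest for Zmat3 (565), and replicate 6 was highest for Ms4a1 (1162, against 506 to 686) and Manf (960) and lowest for Hspa12b (2.79). In Acute shams, replicate 1 was highest for H2-Aa (16944) and lowest for Cdkn1a (1.14, against 19.8 to 56.0) and Sf3b4 (159). Replicate 2 was lowest for Cr2 (1036, against 1231 to 1331) and Mlec (1831) and highest for F13a1 (3366). Replicate 3 was lowest for Plekhh3 (0) and highest for Ciita (3112) and Bak1 (541), replicate 4 highest for Fcnb (2.17), replicate 5 highest for mt-Nd4 (2405) and replicate 6 highest for Birc3 (2239).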

How the results depend on the processing

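No paired analysis was possible because replicate numbers follow accession order and pair no libraries. The difference of responses passed for 561 genes in the analysis reported, and for 394 (without Acute 4.1 Gy replicate 3) to 726 (without VarDR 4.1 Gy replicate 6) with 1 library left out. Of the 561, 287 passed in all 24 such fits. Library weights gave 1258 genes and a fit of the 4 groups of day 5 alone 314. Values as deposited gave 7675 for the difference (7511 positive, against 213 of 561 after rescaling), 10567 for the acute response, 4494 between shams, 6048 between irradiated groups and 80 dose-rate-independent genes. The acute response gave 3510 to 4126 genes with 1 library left out and 6507 with library weights, and the VarDR response 1401 to 2218, 1103 with weights and 1210 in the 4 groups alone. Irradiated groups differed for 1530 genes, 1056 to 1934 with 1 library left out and 3330 with weights. Shams differed for 9 genes, 3 to 233 with 1 library left out, 2 with weights, 28 with no filter, 4 in the 4 groups alone, 28 with a pseudocount of 0.1, 15 with a pseudocount of 10, 77 with quantile normalization, 14 without VarDR 4.1 Gy replicates 4 and 6 and 25 without the libraries over 0.5% liver markers. Dose-rate-independent genes numbered 499, 386 to 519 with 1 library left out, 319 without those libraries, 135 with a 1.5-fold limit and 867 with a 3-fold limit. Without the libraries over 0.5% liver markers, which leaves 3 Acute 4.1 Gy and 2 VarDR 4.1 Gy libraries, 230 of the 561 genes still passed, among 602. With values as deposited the log2 difference was positive where it was negative after rescaling for Nacc2 (0.88), Ciita (0.95), H2-Eb1 (0.90), Btg2 (0.16), Birc3 (0.08), Rps14 (0.19), Mdm2 (0.46), Ccng1 (0.82), Bax (0.60), Cd74 (0.88), Junb (0.01), Klf2 (0.30), Klf3 (0.14) and Mafk (0.03). These changes go with a median over all genes of 0.84 log2 as deposited. For the others the cause was not tested. The authors' values carry no counts, so the depth behind low genes cannot be given.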
